A study of Arabidopsis thaliana with 4 samples.

Results

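The genes described here had almost no reads in roots without aluminium (Al) and were clearly read after 24 h with it. They were selected on read counts: a locus was taken if it had at most 3 reads in both untreated libraries and at least 20 in both libraries from Al-treated roots. Of 22284 Arabidopsis thaliana loci with a row in the count table, 35 met this rule, and 19 met its mirror image. The choice used the contrast of Al against no Al in both genotypes, so the values of that contrast are given below as a description and are not tested.

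Roots of seedlings in the Col-0 background were sequenced after exposure, from age 6 d, to a dilute nutrient solution that held 0 or 10 µM AlCl3 at pH 5.0. The 4 groups were wild type without Al, untreated roots of the arf10/arf16 double mutant (as labelled), wild type with Al, and the labelled line with Al. Roots of about 500 seedlings were pooled for each group, and each group is 1 library of 2080348 to 2280894 reads, so nothing here has replicates. Intervals are exact and at the 95% level, and they cover counting error only, not the spread between cultures. In the labelled line, written arf10/16 below, the level of ARF10 went against the label: it had 110 and 142 reads in wild type without and with Al, and 3820 and 2640 in arf10/16. ARF16 had 159 and 75 reads in wild type and 71 and 41 in arf10/16. The labels name no alleles, and every direction between genotypes rests on the labels alone.

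In acid solution Al ions stop root growth by acting at the wall, the membrane and inside the cells of the root tip. Roots answer by releasing organic acids through malate channels and citrate carriers, a response that depends on the zinc finger factor STOP1. Al also overlaps with dehydration, oxidative damage and senescence, whose genes are read out by transcription factors of the NAC, WRKY, DREB and C2H2 zinc finger families. Abscisic acid is the hormone of dehydration, and phosphatases of the clade A PP2C group hold its signalling down and are themselves induced by it.

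Where a pair of read counts is given for a treatment, wild type comes first and arf10/16 second. Together the 35 genes had 34 reads in untreated wild type and 43 in untreated arf10/16, against 2702 in wild type with Al and 2475 in arf10/16 with Al. Scaled to 10000 reads of a library, these sums were 0.152, 0.196, 11.8 and 11.9. In untreated wild type 19 of the 35 genes had no read, in untreated arf10/16 7 had none, and 5 had none in either. Among all 5211 loci with at most 3 reads in both untreated libraries, the share at 0 was 44.2% in wild type and 44.8% in arf10/16, against 54.3% and 20% of the 35. Only 0.672% of those 5211 loci reached 20 reads in both Al libraries, and 1082 of them had no read there either. With Al, the median gene had 49 reads in wild type (20 to 553) and 36 in arf10/16 (20 to 348). The 3 genes with most reads, AT5G52390, AT3G46080 and AT5G16740, held 34.1% of the reads of all 35 with Al.

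With Al the median RPKM of the genes (reads scaled to transcript length and library size) was 19 in wild type (4.57 to 237) and 17.6 in arf10/16 (5.23 to 338). The rule set a lower limit to these levels, and over all 9834 loci with at least 20 reads in both Al libraries the median RPKM was 28 and 27.1. The fitted log2 ratio of Al over no Al had a median of 4.05 in wild type (2.40 to 8.06) and 4.12 in arf10/16 (2.28 to 7.03), and over all 14739 loci past the filter on low counts it was 0.01 and -0.02. These fitted values depend on the count of 2 added to each library. By a rule of size (a log2 ratio of at least 1 with a counting interval of the ratio that leaves out 1), 14.4% of the 14739 loci were higher with Al in wild type and 10.8% in arf10/16. All 35 genes passed the filter, which they could do only through the Al libraries, and the direction was fixed by the choice.

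**Figure D1:**
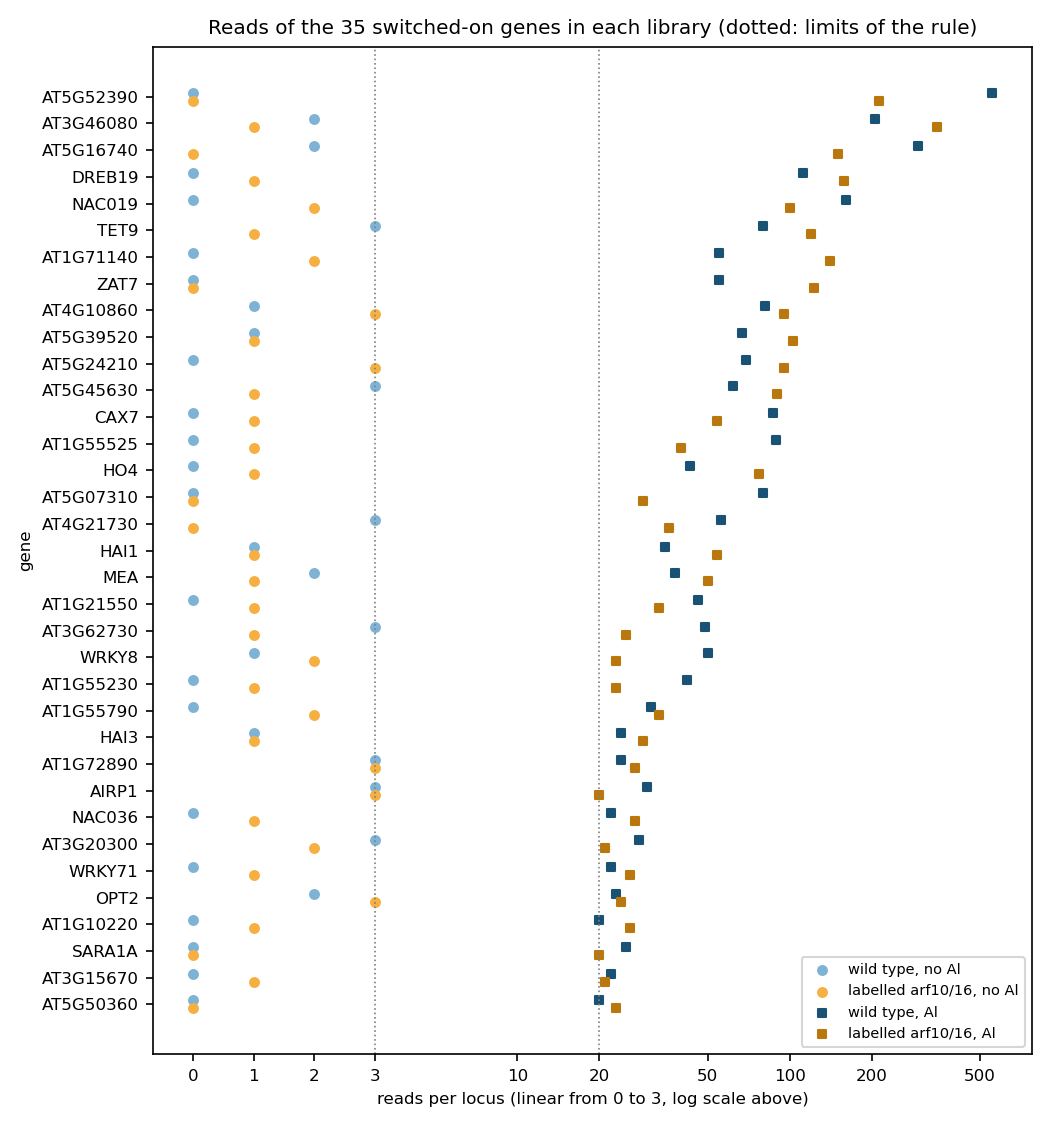
Reads per locus (horizontal axis, linear from 0 to 3 and logarithmic above) of the 35 genes (vertical axis, ordered by reads with Al) in each of the 4 libraries, with 1 point per library. Circles are libraries without Al, squares libraries with Al, and the dotted lines mark the limits of 3 and 20 reads that chose the genes; the squares run from 20 to 553 reads and cross over between genotypes from gene to gene.

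Bulk roots cannot tell fewer cells of a type from less RNA per cell. The tissue label was checked with 10 root markers, whose summed level was 5068 and 5228 CPM (counts scaled to library size) in untreated wild type and arf10/16 and 1487 and 1767 with Al. By edgeR's quasi-likelihood test 8 of the 10 fell with Al and none rose. Photosynthesis genes, as markers of shoot, summed to 61.2 and 64.4 CPM without Al and 18.9 and 29.5 with it. Of 5 seed markers 3 had no row, and their sum was 0.839, 0.466, 0 and 5.17 CPM in wild type and arf10/16 without Al and then with it. Of 3 pollen markers 2 had no row, and the sum stayed between 0 and 0.933 CPM. The part of the lower root markers in the values of the 35 genes was not tested.

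Transcription factors made up 8 of the 35 genes, from 4 families. The C2H2 zinc finger gene AT3G46080 had 2 reads in untreated wild type, 1 in untreated arf10/16, 205 in wild type with Al and 348 in arf10/16 with Al. Its ratio of Al over no Al was 107 in wild type (29.3 to 893) and 385 in arf10/16 (68.7 to 15267), both intervals wide because the untreated count was so small. ZAT7, a C2H2 factor known as a repressor in stress responses, had 0 reads in both untreated libraries and 55 and 123 with Al. Against a floor of 3 reads in the library at 0, it was at least 19.2-fold higher in wild type and at least 45.4-fold higher in arf10/16. Both zinc finger genes thus had more reads in arf10/16 than in wild type with Al.

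The pair lies close together on chromosome 3, with 1 annotated gene, AT3G46086, between them on the same strand. No member had another as its direct neighbour, against 0.204% of 22103 other loci, and within 3 genes this pair gave 2 members, 5.71%, against 0.638% of other loci. Their transcripts were 83.3% identical over 809 aligned bases, so reads could be shared between them depending on how the authors counted. The windows from 250 bases before to 50 after their starts were 91.3% identical, at 230 of 252 aligned bases, with a longest shared run of 34 bases. The 250 bases before each start are shown because of that likeness, as RefSeq gives them for these identifiers on build TAIR10.1, minus strand (the build the authors counted on is not given in the sources used here), at chr3:16923300-16923549 for AT3G46080 and chr3:16926884-16927133 for ZAT7. Capitals mark CGCGT, the core bound by calmodulin-binding CAMTA factors, and TTGAC, the W-box core bound by WRKY factors, on either strand.
AT3G46080: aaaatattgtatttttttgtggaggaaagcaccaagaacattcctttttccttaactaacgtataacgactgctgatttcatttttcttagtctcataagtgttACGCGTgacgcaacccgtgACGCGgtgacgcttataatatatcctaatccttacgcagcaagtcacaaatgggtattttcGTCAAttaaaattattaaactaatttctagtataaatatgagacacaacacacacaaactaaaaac
ZAT7: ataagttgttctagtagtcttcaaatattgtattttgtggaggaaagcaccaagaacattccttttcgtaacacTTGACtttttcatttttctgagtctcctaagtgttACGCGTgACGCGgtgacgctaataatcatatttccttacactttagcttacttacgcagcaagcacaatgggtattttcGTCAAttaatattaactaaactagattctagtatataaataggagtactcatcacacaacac
Both windows hold the CAMTA core 3 times in a short stretch, counting both strands, and the palindrome ACGCGT gives 2 of these. Only 12.1% of the 33 promoters of protein-coding members held the core at all, against 8.7% of all 27443 promoters, and the others with it were TET9 and AT5G07310.

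The other factors were of the AP2/ERF, NAC and WRKY families. DREB19, a DREB2-type factor, had 0 and 1 reads untreated and 112 and 158 with Al. NAC019, a factor of dehydration and senescence responses, had 0 and 2 reads untreated and 161 and 100 with Al. AT5G07310, listed by RefSeq also as ERF115 and known from the renewal of damaged root stem cells, had no read untreated and 80 and 29 with Al. WRKY8, WRKY71 and NAC036 were read less, with 22 to 50 reads in each Al library, and WRKY8 had its higher count in wild type, with 50 reads against 23. No common order of the genotypes was seen among the 8 factors, since NAC019, AT5G07310 and WRKY8 had more reads in wild type and the rest more in arf10/16.

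Genes of abscisic acid and dehydration made up 5 of the 35. HAI1 and HAI3 are clade A PP2C phosphatases. HAI1 had 1 read in each untreated library and 35 and 54 with Al. HAI3 had 1 read in each untreated library and 24 and 29 with Al. Their ratios of Al over no Al in wild type were 36.7 (6.16 to 1489) and 25.1 (4.10 to 1034). AIRP1, a RING ubiquitin ligase that acts in the response to abscisic acid, had 3 reads in each untreated library and 30 and 20 with Al. The remaining genes of this group were AT3G15670, a late embryogenesis abundant (LEA) family protein, and AT3G62730, annotated as desiccation-like. All 5 had between 20 and 54 reads in each Al library, and none differed between the genotypes by the rule of size.

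Some members have the core of the abscisic acid response element repeated in their promoters, and 3 such promoters are shown. Of the 5 genes of abscisic acid and dehydration, HAI3, AT3G15670 and AT3G62730 hold the core, while HAI1 and AIRP1 do not. ACGTG is the core, bound by bZIP factors of the abscisic acid response, and CACGTG is the G-box, which holds the core on both strands and so counts as 2 matches. The sequences are the 250 bases before the start (RefSeq, TAIR10.1). That of AT5G50360, annotated as a von Willebrand factor A domain protein, lies at chr5:20506355-20506604 on the minus strand. That of SARA1A, a GTPase of secretory vesicles, lies at chr1:2964773-2965022 on the plus strand, and that of NAC019 at chr1:19698483-19698732 on the minus strand. Capitals mark ACGTG, the core TTGAC and the core CGCGT on either strand.
AT5G50360: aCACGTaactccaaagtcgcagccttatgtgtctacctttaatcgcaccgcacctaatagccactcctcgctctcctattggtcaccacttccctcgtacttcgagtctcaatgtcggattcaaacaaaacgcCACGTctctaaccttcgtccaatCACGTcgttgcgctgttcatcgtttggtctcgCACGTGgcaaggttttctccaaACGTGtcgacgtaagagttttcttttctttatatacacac
SARA1A: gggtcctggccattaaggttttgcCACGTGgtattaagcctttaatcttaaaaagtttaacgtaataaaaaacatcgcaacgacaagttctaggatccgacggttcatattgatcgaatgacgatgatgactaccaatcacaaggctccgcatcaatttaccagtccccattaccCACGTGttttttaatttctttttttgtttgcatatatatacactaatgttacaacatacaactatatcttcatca
NAC019: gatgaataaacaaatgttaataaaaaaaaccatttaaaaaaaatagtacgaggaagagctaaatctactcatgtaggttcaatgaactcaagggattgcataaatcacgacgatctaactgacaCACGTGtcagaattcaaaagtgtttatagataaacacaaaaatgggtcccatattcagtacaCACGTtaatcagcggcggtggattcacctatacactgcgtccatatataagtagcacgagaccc
AT5G50360 holds 6 matches, SARA1A 4 and NAC019 3, as many as AT3G15670 and AT5G45630, which are not shown. AT5G50360 and SARA1A were among the genes with no read at all without Al, and they had 20 and 23, and 25 and 20, reads with it.

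Across the 33 promoters, 14 held the ACGTG core, or 42.4%, against 26.7% of all promoters and 28.4% of the promoters of the other loci past the filter. The G-box was in 15.2% against 7.68% of all promoters. At least 2 matches of ACGTG were found in 11 of the 33, against 10.7% of all promoters. A single G-box counts as 2 matches here, and CAX7 and AT5G39520 hold only that. TTGAC was in 57.6% against 50.5%, and TGACG, the core of the as-1 element bound by TGA factors, in 33.3% against 23.1%. The DRE core CCGAC, bound by DREB factors, was in 18.2% against 15%, and the sugar-starvation element TATCCA in 6.06% against 16.1%. The heat shock element and the motif of mitochondrial dysfunction genes were in 0 of the 33, against 0.481% and 0.904% of all promoters. These shares carry no test, and a match is no more than a run of letters in this window. No motif covered the whole set: 6 genes had both TTGAC and ACGTG, 13 only TTGAC, 8 only ACGTG and 6 neither.

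**Figure D2:**
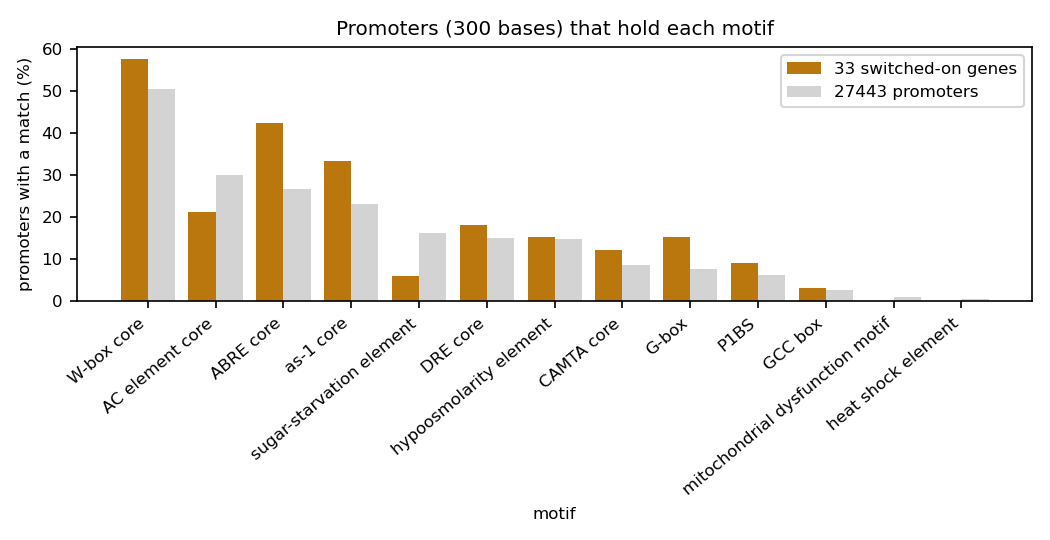
Share of promoters (vertical axis, %) that hold each of 13 motifs (horizontal axis) on either strand, for the 33 protein-coding switched-on genes and for all 27443 promoters of the annotation. The ABRE core stands at 42.4% against 26.7%, the sugar-starvation element at 6.06% against 16.1%, and the W-box core at 57.6% against 50.5%.

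Transport genes made up 5 of the 35. AT5G16740, of the transmembrane amino acid transporter family, had 2 and 0 reads untreated and 296 and 150 with Al. AT1G71140, of the MATE efflux family, to which the citrate carrier of Al exclusion also belongs, had 0 and 2 reads untreated and 55 and 140 with Al. CAX7, a cation exchanger, had 0 and 1 reads untreated and 87 and 54 with Al. AT5G16740 and CAX7 had more reads in wild type, and AT1G71140 more in arf10/16. OPT2, an oligopeptide transporter, and AT3G20300, annotated as a ligand-gated ion channel protein, had 21 to 28 reads in each Al library.

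The remaining 17 genes have mixed or unknown roles. AT5G52390, annotated as a PAR1 protein, had the most reads of all: 0 in both untreated libraries, 553 in wild type with Al and 212 in arf10/16 with Al. It was at least 193-fold higher with Al in wild type and at least 78.3-fold higher in arf10/16. TET9, a tetraspanin membrane protein, had 3 and 1 reads untreated and 80 and 120 with Al. HO4, a heme oxygenase that opens the heme ring to biliverdin, had 0 and 1 reads untreated and 43 and 77 with Al. MEA, a histone methyltransferase of Polycomb complex 2 best known from the seed, had 2 and 1 reads untreated and 38 and 50 with Al.

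Several of the well-read genes are known by their annotation alone. The uncharacterized AT4G10860 had 1 and 3 reads untreated and 81 and 95 with Al. AT5G39520, with a DUF1997 domain, had 1 and 1 reads untreated and 67 and 103 with Al. AT5G24210, an alpha/beta hydrolase, had 0 and 3 reads untreated and 69 and 95 with Al. All 3 had more reads in arf10/16 than in wild type with Al, as did AT5G45630, named a senescence regulator, with 3 and 1 reads untreated and 62 and 90 with Al. The noncoding RNA AT1G55525 had 0 and 1 reads untreated and 89 and 40 with Al. A pseudogene of a vesicle fusion factor, AT4G21730, had 3 and 0 reads untreated and 56 and 36 with Al. The EF-hand protein AT1G21550 had 0 and 1 reads untreated and 46 and 33 with Al. These 3 had more reads in wild type with Al. AT1G55230, AT1G55790, AT1G10220 and AT1G72890, a TIR-NBS disease resistance protein, had 20 to 42 reads in each Al library.

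The limits of the rule cut through a continuous range of counts. Just inside the limit of 20 were SARA1A, AT5G50360, AT1G10220 and AIRP1, each with 20 reads in 1 of the Al libraries. Just outside were ATG8D, an autophagy protein, with 31 and 19 reads with Al, MES16, a methylesterase, with 26 and 19, AT1G69480 with 23 and 19 and AT5G01225 with 19 and 23. At the limit of 3 reads, AT1G72890 and AIRP1 had 3 in both untreated libraries. With 4 reads as their higher untreated count, 16 loci were left out. The 4 of them with most reads with Al were LEA4-5, a late embryogenesis abundant protein, with 2 and 4 reads untreated and 310 and 313 with Al, PRX52, a peroxidase, with 0 and 4 untreated and 334 and 186 with Al, AT1G52130 with 132 and 191 with Al, and UMAMIT8, an amino acid exporter family gene, with 83 and 78. LEA4-5 thus had more reads with Al than any member but AT5G52390.

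The contrast between the genotypes with Al was not used by the rule. By the rule of size 3 of the 35 genes were higher in arf10/16 with Al, 2 were lower and 30 were neither, while 4.12% of the 14739 loci tested were higher and 1.77% lower. AT1G71140 was 2.99-fold higher in arf10/16 (2.18 to 4.17), ZAT7 2.63-fold (1.9 to 3.68) and HO4 2.11-fold (1.43 to 3.13). AT5G52390 was 2.22-fold lower in arf10/16 (1.89 to 2.61) and AT5G07310 2.35-fold lower (1.52 to 3.72). AT3G46080, at a ratio of 2 (1.68 to 2.38), lay on the limit of the rule and did not pass it. With total counts 2 members were higher and 2 lower, and with the deposited RPKM 2 and 3, though the shares of all loci under these scalings are not given here. With 1 library a group, none of these differences has a replicate check.

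**Figure D3:**
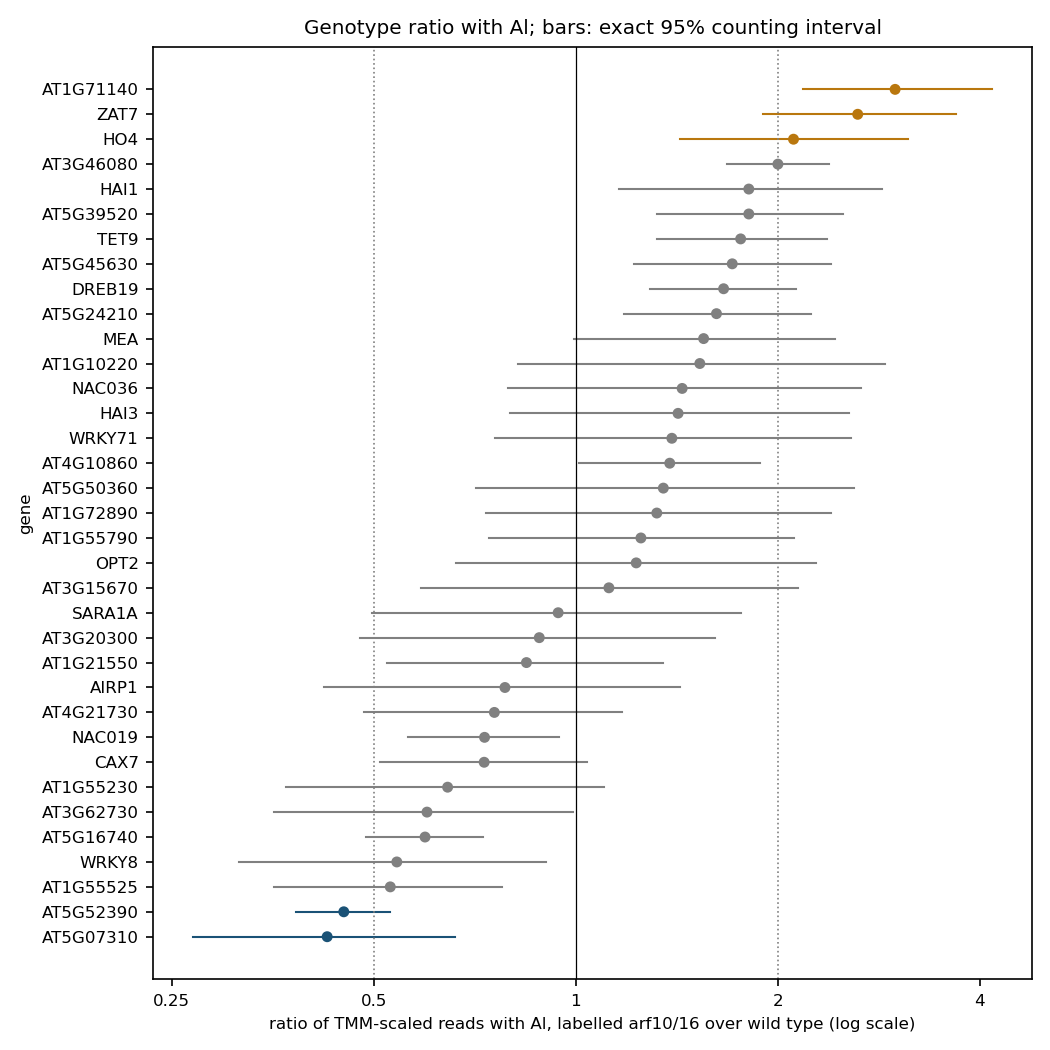
Ratio of reads, scaled to library size by TMM, in arf10/16 over wild type, both with Al (horizontal axis, log scale), for each of the 35 genes (vertical axis), with exact 95% counting intervals as bars; the dotted lines mark 2-fold. AT1G71140, ZAT7 and HO4 (orange) lie above 2-fold, AT5G52390 and AT5G07310 (dark blue) below, and the grey genes between spread over both sides of 1.

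Over the 35 genes the log2 ratio of arf10/16 over wild type with Al ran from -1.18 to 1.55, with a median of 0.38, against 0.04 over all loci tested. It was above 0 for 21 genes and below 0 for 14. Summed over the set, the ratio of reads was 1.08 (1.02 to 1.14). That sum depends on single genes with many reads: without AT5G52390 it was 1.24 (1.17 to 1.31). AT3G46080, with 205 and 348 reads with Al, weighs the other way, and the sum without it was not taken. Neither value is read as a shift of the whole set. The genes called in either direction all had the TTGAC core in their promoters, as had 57.6% of the 33.

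The only test of the members is that of genotype. It comes from an additive model fitted to all 4 libraries, with terms for genotype and treatment. The model has 1 residual degree of freedom and takes any difference in response as its error. For the 35 genes this test is not free of the choice, since the rule held both untreated counts to 3 or fewer and they enter the fit. AT1G71140, with 0 and 2 reads untreated, had a genotype effect of 1.62 ± 0.33 (log2 of arf10/16 over wild type, SE; adjusted p = 0.0463 by edgeR's quasi-likelihood test, unadjusted p = 0.000907). It was the only 1 of the 35 past the threshold, where 1.86% of the 14739 loci passed as higher and 0.305% as lower in arf10/16. At an unadjusted p under 0.05 there were 9 of the 35. The share of all loci at that limit is not given here, so this count is not read as an excess. With total counts in place of TMM scaling, the adjusted p of AT1G71140 by edgeR's quasi-likelihood test was 0.0637, and over the 3 alternatives it ran from 0.00453 (no filter on low counts) to 0.343 (DESeq2). The 250 bases before the starts of 3 genes that differed by size follow (RefSeq, TAIR10.1), since they differ in which cores they hold: AT1G71140 at chr1:26824314-26824563 on the plus strand, HO4 at chr1:21630119-21630368 on the minus strand and AT5G52390 at chr5:21265461-21265710 on the minus strand. Capitals again mark TTGAC, then ACGTG and CGCGT, on either strand.
AT1G71140: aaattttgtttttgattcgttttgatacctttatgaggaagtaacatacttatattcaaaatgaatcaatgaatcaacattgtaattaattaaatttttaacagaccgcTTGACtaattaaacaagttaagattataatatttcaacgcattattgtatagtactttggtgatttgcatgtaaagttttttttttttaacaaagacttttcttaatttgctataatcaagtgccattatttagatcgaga
HO4: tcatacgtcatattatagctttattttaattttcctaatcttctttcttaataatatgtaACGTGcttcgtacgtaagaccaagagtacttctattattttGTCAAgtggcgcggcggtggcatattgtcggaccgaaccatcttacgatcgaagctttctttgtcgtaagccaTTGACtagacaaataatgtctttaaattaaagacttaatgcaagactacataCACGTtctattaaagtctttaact
AT5G52390: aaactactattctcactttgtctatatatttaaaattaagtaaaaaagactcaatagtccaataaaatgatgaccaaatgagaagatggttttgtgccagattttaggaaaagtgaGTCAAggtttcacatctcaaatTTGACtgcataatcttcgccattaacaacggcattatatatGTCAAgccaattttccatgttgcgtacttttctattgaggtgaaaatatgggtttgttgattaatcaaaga
AT1G71140 holds TTGAC once, HO4 holds 2 matches each of TTGAC and ACGTG, and AT5G52390 holds 3 of TTGAC and none of ACGTG. The core TTGAC thus occurs before genes higher and before a gene lower in arf10/16.

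Near relatives of the 35 genes, chosen after the set was known, show where the same family was already read without Al. For these non-members the Al effect of the additive model was tested. Among all 14739 loci past the filter, 15.5% rose and 13.1% fell. These shares include the 35 members and 855 other loci past the filter only through the Al libraries. The counts of tested genes below come from a narrower set, for which no share is given. Some loci passed the filter on low counts (10 reads in a library of median size) only through the Al libraries or only through the untreated ones, which fixes their direction, so the counts of tested genes below take the loci that reached it in a library of each treatment. All 3 tested further clade A PP2C genes, ABI1, HAB2 and PP2CA, rose with Al. ABI1 went from 277 and 291 reads to 652 and 581, an effect of 1.22 ± 0.19 (log2, SE; adjusted p = 0.00185 by edgeR's quasi-likelihood test). HAI2, with no read untreated and 17 and 7 with Al, and HAB1, with 0 and 1 and then 7 and 11, passed the filter only through the Al libraries. All 6 tested NAC relatives of NAC019 rose, among them NAC055, which RefSeq calls NAC3, from 11 and 53 reads to 311 and 428 (3.79 ± 0.35, adjusted p = 0.000161 by edgeR's quasi-likelihood test).

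Other families split. DREB2B and DREB2C rose, with 67 and 90, and 145 and 141, reads with Al, while DREB2A, with 23 and 51 reads untreated and 20 and 37 with Al, did not pass the test. Of 2 tested WRKY relatives WRKY48 rose, and WRKY28 had 32 and 189 reads untreated and 148 and 153 with Al. WRKY57, past the filter only with Al, had 2 and 4 reads untreated and 16 and 13 with Al. The main heme oxygenase gene HY1, RefSeq's TED4, rose from 38 and 40 reads to 157 and 160. By contrast none of 4 tested Polycomb complex 2 genes other than MEA passed: the related methyltransferase CLF had 174 and 133 reads untreated and 107 and 95 with Al, and SWN 129 and 129 and then 212 and 143. Of 3 tested SAR1 GTPases 1 rose, AT3G62560, from 52 and 58 reads to 104 and 75 (0.80 ± 0.23, adjusted p = 0.0337 by edgeR's quasi-likelihood test), and SAR2, with 209 and 207 reads untreated and 272 and 191 with Al, did not pass. SAR1B, whose transcript is 86.3% identical to that of SARA1A over 582 bases, had 437 and 333 reads untreated and 278 and 206 with Al (-0.57 ± 0.18, adjusted p = 0.0505 by edgeR's quasi-likelihood test). The untreated libraries gave SARA1A no read while SAR1B had these. Higher identities were found for AT1G55790 to AT1G55803 (89.6% over 424 bases) and for AT4G10860 to AT4G10880 (88.5% over 514 bases). Neither partner has counts in the table, and whether reads were shared was not tested.

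**Figure D4:**
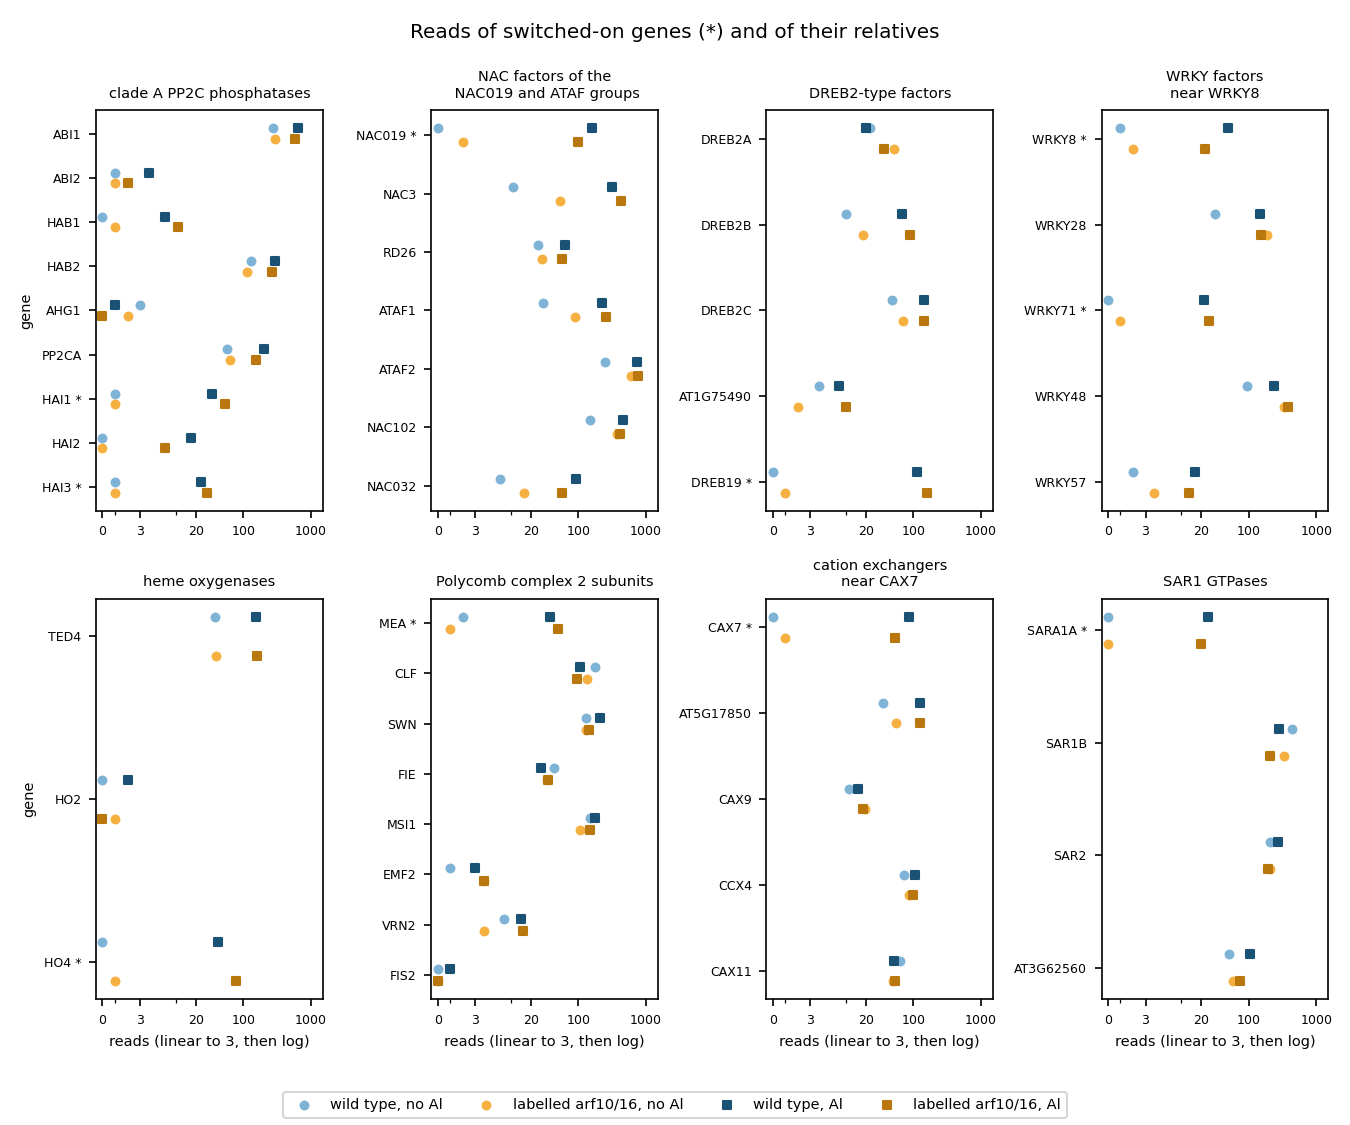
Reads in the 4 libraries (horizontal axes, linear to 3 and logarithmic above) of switched-on genes, marked with *, and of their relatives in 8 families, 1 panel per family with genes on the vertical axis. All 6 relatives in the NAC panel lie further right with Al in both genotypes, while in the PP2C panel AHG1, with 3 and 2 reads without Al and 1 and 0 with it, does not; in the Polycomb panel MEA goes from 2 and 1 reads to 38 and 50.

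Pathway lists were read the same way, leaving out the 35 and the loci past the filter in 1 treatment only. The dehydration and abscisic acid list held HAI1 and HAI3, and of its 10 other tested genes 6 rose with Al and none fell. Some listed genes were too little read to be tested. RAB18 had 0 and 0 reads untreated and 1 and 1 with Al, and LTI65 0 and 0 and then 1 and 0. COR15A, COR15B and LEA7 had no row in the count table. Of the tested genes with most reads, LTI30 and LTI78, proteins of dehydration and cold, rose, whereas COR47 and LEA14 did not pass. LEA14 had 304 and 664 reads untreated and 317 and 282 with Al. The senescence list held NAC019, and 9 of 10 others rose, among them WRKY6, the nuclease gene BFN1 and NAC6, known as ORE1, which went from 27 and 34 reads to 362 and 397. WRKY53 was the 1 that fell, from 117 and 494 reads to 32 and 87. SAG12 and SAG13 of the senescence list had no row in the count table. The C2H2 list held AT3G46080 and ZAT7, and of 5 others RHL41, known as ZAT12, and ZF2 rose, and ZAT11 fell from 99 and 310 reads to 32 and 90. STZ, known as ZAT10, with 764 and 1720 reads untreated and 712 and 1130 with Al, did not pass, nor did ZAT6.

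No member was in the lists of Al tolerance and STOP1 targets, developmental cell death, sugar starvation, mitochondrial stress, tau glutathione S-transferases, salicylic acid and camalexin, or suberin. Of their tested genes 9 of 12, 6 of 9, 7 of 10, 2 of 5, 7 of 14, 7 of 9 and 16 of 18 rose with Al, in that order, and 1 gene each fell in the lists of Al tolerance, cell death and salicylic acid. PR1, PR2 and PR5 of the salicylic acid list had no row in the count table. ALMT1, the malate channel of Al exclusion, had 8 and 1 reads untreated and 819 and 342 with Al, so it missed the rule by its untreated wild-type count.

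By median, the 33 protein-coding members were more compact than the other tested loci. Their median number of exons was 3, against 4 in the 14428 other tested protein-coding loci. A single exon was found in 27.3% against 16.7%, and the median transcript was 1259 bases long against 1756. The rule used raw reads, which also depend on transcript length, and a comparison with loci equally low without Al is not given here. On chromosomes 1 to 5 lay 13, 3, 5, 4 and 10 of the 35. DREB19, AIRP1, TET9 and AT5G39520 overlap a gene on the opposite strand with reads of its own, and without the authors' strand setting reads of such pairs cannot be told apart. The partner of TET9, UMAMIT34, had 39 and 20 reads untreated and 7 and 7 with Al, and that of AT5G39520, SGR4, had 304 and 254 and then 452 and 348.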

How the data were processed

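Root RNA of 4 groups was sequenced with 1 library each. The deposited count table gives reads per transcript model (25092 models), and the deposited RPKM table gives the same reads scaled to model length and library size, per the file headers. What aligner, build and strand setting the authors used is not given in the sources used here, nor how shared reads were handled. Model counts were added up per locus (22284 loci), with empty cells as 0, and 99.3% of loci matched the RefSeq annotation of TAIR10.1 by identifier. The total count per library was 2080348 to 2280894. Of 24527 models with a RefSeq transcript of the same name, 19.2% had exactly its spliced length (median difference 116 bases), so gene starts may differ from those the authors used.

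The 35 members, the gene lists and the tests were chosen with earlier results of these data known, and the families of relatives and the role classes after the members were seen. Loci were kept by filterByExpr of edgeR 4.0.16 in R 4.3.3 (14739 loci) and scaled by TMM, and log2 ratios of CPM used a prior count of 2. A fold against 0 reads was taken against a floor of 3 reads in that library. Intervals are exact Clopper-Pearson intervals on both counts. The genotype and Al effects come from edgeR's quasi-likelihood test of ~ genotype + treatment over the 4 libraries, with Benjamini-Hochberg adjustment over all 14739 loci at 0.05; the Al effect, used for non-members only, was added to the planned genotype test, and counts of non-members take loci with 10 reads, scaled to the median library size, in an untreated and in an Al library, a limit set after the data were seen. The SE is the effect divided by the root of F. The fit was tested on simulated data. DESeq2 1.42.0 was an alternative, as were other thresholds, scalings and filters.

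Genes were named by rule: the 20 members with most reads with Al, members in a gene list, those past the rule of size or the genotype test, the loci nearest the thresholds (at most 4 each), neighbouring pairs and up to 4 other genes of a list with most reads. Genes named outside it (WRKY53, ZF2, RAB18, LTI65, genes without a row, some relatives) were chosen after their values were seen. Promoters run from 250 bases before to 50 after the RefSeq start of 27443 protein-coding genes, and 13 motifs were searched on both strands. Transcripts were compared with BLAST 2.17.0, in place of a planned comparison of proteins.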

Additional observations from a re-analysis of the deposited data

How the results depend on the processing

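The number of members follows the thresholds: 18 loci with at most 1 untreated read, 65 with at most 5, 102 with at least 10 reads with Al and 13 with at least 50. All 35 remained under the 2 wider limits, and with reads scaled by TMM 30 loci met the rule, all among the 35. At a size threshold of 1.5-fold, 10 members were higher and 6 lower in arf10/16 with Al, and at 3-fold 0 and 0. The shares of all loci at these thresholds are not given here, so these counts are not read as an excess. The median log2 ratio was 0.28 with total counts, where the median of all loci moved from 0.04 to -0.05. A change of scaling moves the ratios of the members and of all loci by almost the same amount. That the median of the members stayed above that of all loci under each scaling tried is therefore no check of it. By the genotype test 0 members passed with DESeq2 (1 at an unadjusted p under 0.05, with 24 adjusted values not given). In edgeR 0 passed with total counts (9 unadjusted) and 3 without a filter on low counts (AT1G71140, ZAT7 and AT5G52390). The shares of all loci passing under these alternatives are not given here. Within 3 genes instead of as direct neighbours, 2 members had another nearby. The cause of these differences was not tested. No paired analysis was possible because each group has 1 library, and for the same reason no replicate could be left out. Depth limits the untreated values most, since 0 to 3 reads leave folds with wide intervals or lower bounds only.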

Other observations

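With the same limits, 146 loci passed in the wild-type pair alone, 64 in the arf10/16 pair and 35 in both. Of the 111 that passed in wild type only, 84 had more than 3 reads in untreated arf10/16, and 74 of those reached 20 reads there with Al. Their median was 6 reads in untreated arf10/16 and 33 with Al. Of the 29 that passed in arf10/16 only, 14 had more than 3 reads in untreated wild type and 18 had under 20 reads in wild type with Al. All these counts come from the values the rule used: a locus that passed in 1 pair only must miss a limit in the other, and a median of 6 lies close to the limit of 3. They describe how the set was cut, and the difference between the pairs was not tested, since each group has 1 library.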
